A study of Mus musculus with 5 samples.

Results

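The C-type lectin receptor genes comprise every gene of the RefSeq GRCm38.p6 table, on an autosome or X and annotated as protein-coding, whose symbol starts with Clec and a digit. This gave 33 of 21631 protein-coding genes. Clec2j, a pseudogene in that table, was left out. Members were chosen by symbol, but the family was selected on the positions and scores of its PU.1 sites in the list described here, so these values are given as a description and support no test. PU.1, the ETS-family transcription factor encoded by Spi1, was mapped by chromatin immunoprecipitation and sequencing (ChIP-seq) with the T-21 antibody in AML-246 cells, a C57BL/6 mouse acute myeloid leukaemia. Both groups carry the same p53-/- shPU.1 background, in which a GFP-linked hairpin against PU.1 is controlled by doxycycline (Dox). The PU.1 low group is spleen cells of untreated leukaemic recipients (2 libraries), and the PU.1 high group is spleen cells after 2 days of Dox, which stops hairpin expression so that the cells make their own PU.1 again (3 libraries). The labels call the libraries technical replicates of 1 leukaemia line and describe whole spleen cells, so other spleen cells of the recipient may be included. The question is where PU.1 binding is higher after acute restoration.

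C-type lectin receptors are surface proteins with a sugar- or ligand-binding lectin fold. On macrophages, neutrophils and dendritic cells, activating members signal through tyrosine motifs of their own tail or of the adaptors Fc receptor gamma chain (Fcer1g) and DAP12 (Tyrobp) to the kinase Syk and the adaptor Card9. Inhibitory members recruit phosphatases such as SHP-1 (Ptpn6) instead. Many of the genes stand side by side on mouse chromosome 6, in the natural killer gene complex and in a second array nearby, and arose by local duplication. The Clec symbol also covers secreted, endothelial and intracellular proteins with no such role.

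The data are 1 list of 11111 summits (the point of highest signal of each called site) for the 5 libraries, of which 11106 lay on the chromosomes used. The file's name sets high against low, so a listed site is read as one called higher in the PU.1 high group. Each has the authors' score on a −log10 scale of a p- or q-value, with a median of 8.56 and a highest value of 43.3. The score says how surely a site stands out and is no fold change. With no value per library, read depth and the spread between libraries are unknown, so no value below has a replicate error and no difference was tested. A peak list also holds no expression by which the leukaemic cells could be checked against their markers.

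Of the 33 Clec genes, 19 (57.6%) had a summit within 10 kb of either gene end, against 22.4% of all protein-coding genes. Within 1 kb, 7 of the 33 (21.2%) had one, against 6.41% of all genes, and within 0.1 kb 4 (12.1%), against 2.13%. Within 5 kb, 15 (45.5%) had one, against 15.1%. When summits anywhere inside a gene were also counted, the number was again 19, against 27.8% of all genes. Within 50 kb, 25 (75.8%) had one, against 49.5%. The nearest summit lay a median of 6.77 kb from a Clec gene end and 51.1 kb from the end of any protein-coding gene. Many of the Clec genes are neighbours, so they are not independent of each other. In the plot of genes by distance, the Clec genes lie above all genes from 0.1 kb outward.

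**Figure D1:**
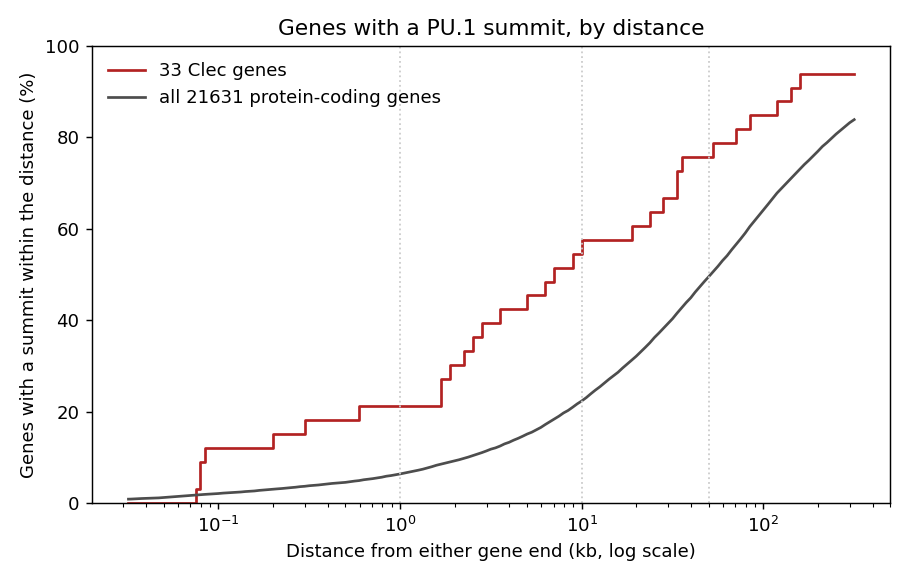
Share of genes (%, y axis) with a PU.1 summit within a given distance of either gene end (kb, log scale, x axis), for the 33 Clec genes (red) and all 21631 protein-coding genes (grey), with dotted lines at 1, 10 and 50 kb. At 10 kb the curves stand at 57.6% and 22.4%.

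Together the 19 genes had 25 different summits within 10 kb, 2 of them shared by a pair of neighbours. For all 25 the nearest protein-coding gene end was that of a Clec gene. Their median score was 10.1, against 8.35 for the 4507 summits within 10 kb of any protein-coding gene end, and 13 of the 25 (52.0%) scored at least 10, against 35.7%. Scores ranged from 1.44 at Clec2l to 21.8 at Clec4a2. At a score of at least 10, 11 genes (33.3%) kept a summit within 10 kb, against 9.08% of all genes. The genes just inside the 10 kb limit were Clec12b and Clec1a, whose only summit within it, the same one, lay at 8.67 and 9.62 kb. The nearest gene outside it was Clec3b, with a summit at 18.6 kb.

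**Figure D2:**
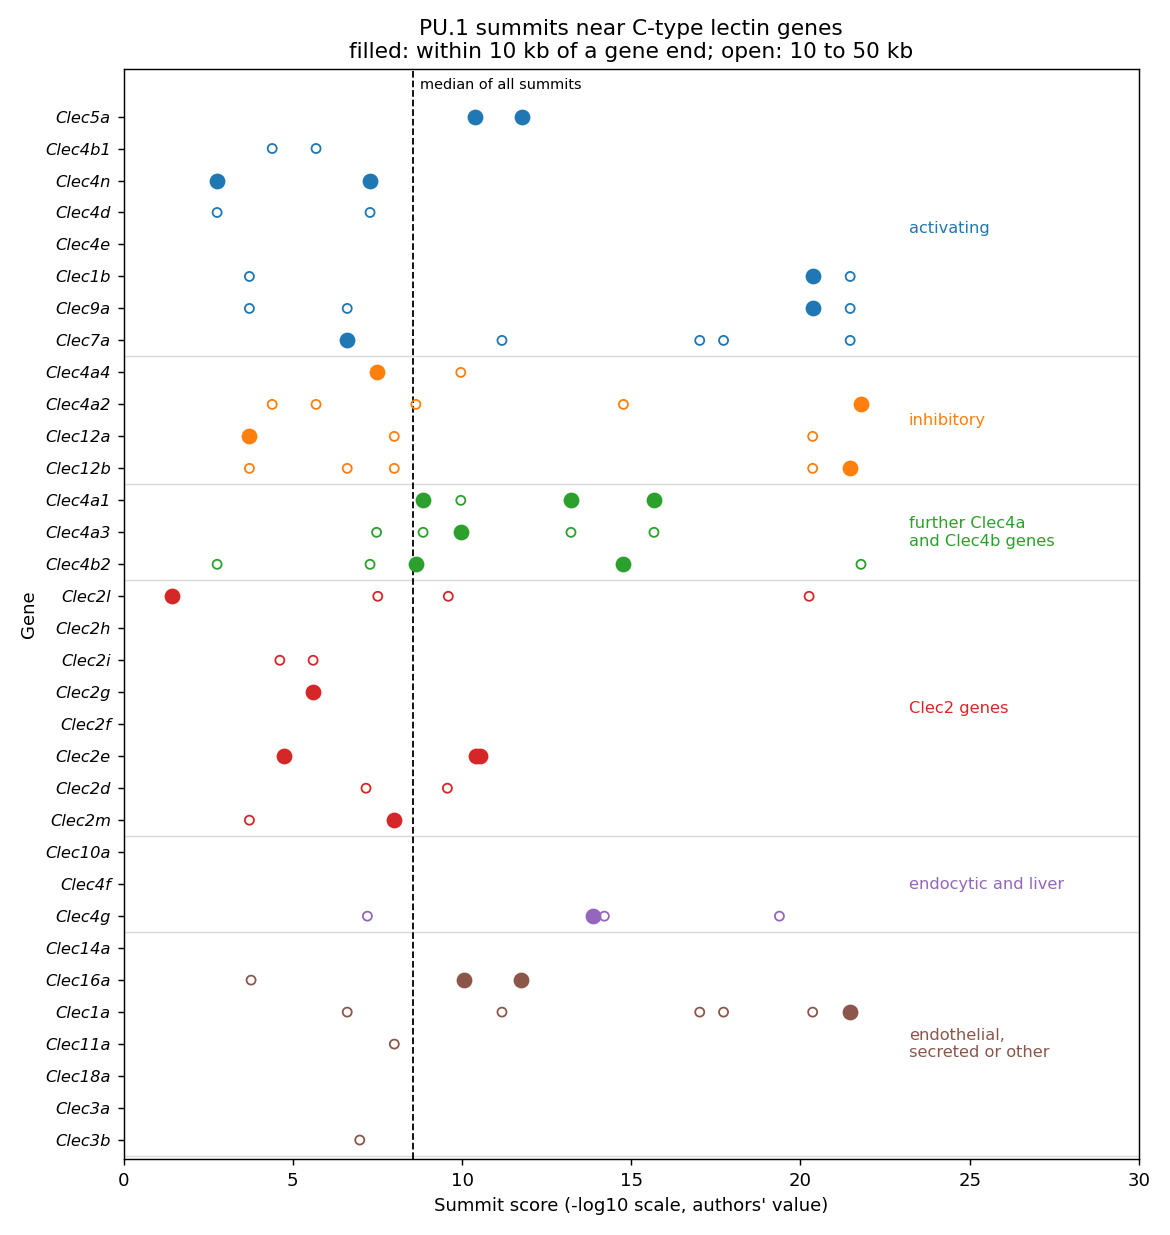
Score (−log10 scale, x axis) of each PU.1 summit near each of the 33 Clec genes (y axis), coloured by the role of the gene. Filled circles are summits within 10 kb of a gene end and open circles those at 10 to 50 kb, so a summit near several genes appears in several rows, and the dashed line marks the median of all summits, 8.56. The highest filled circles are those of Clec4a2 (21.8), Clec12b and Clec1a (21.5, 1 shared summit) and Clec1b and Clec9a (20.4, 1 shared summit).

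Of the 8 activating receptor genes, 5 (62.5%) had a summit within 10 kb, against 22.4% of all genes. Clec7a (chromosome 6, 129461591 to 129472785, minus strand) encodes Dectin-1, the receptor for fungal beta-glucan. Its summit, at 129472865, lay 80 bases upstream of its outermost transcription start and scored 6.61, below the median of all sites. A group of 3 higher summits followed 18.7, 22.3 and 25.2 kb beyond the same end, with scores of 17.0, 17.7 and 11.2. All 3 lie inside the span of Olr1 (129479150 to 129507350), the gene of the oxidised lipoprotein receptor LOX-1, whose ends are nearer to them than those of Clec7a. Clec4n (123229843 to 123247024) encodes Dectin-2, a receptor for fungal mannans. It had summits 79 bases and 2.12 kb beyond its lower end (the end with the lower coordinate), at 123229764 and 123227724, with scores of 2.76 and 7.28. Both lie below the median. Of all summits, 66.3% scored higher than the site beside Clec7a and 96.2% higher than the closer site of Clec4n.

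Clec5a (40574898 to 40585805), the gene of the DAP12-coupled myeloid receptor MDL-1, stands apart from both arrays. It had a summit of score 11.8 at 40594943, 9.14 kb upstream of its start, and one of 10.4 at 40576542, inside the gene and 1.64 kb from its other end. Clec1b (129397297 to 129405413) encodes CLEC-2, the podoplanin receptor best known from platelets. Clec9a (129408862 to 129424764) encodes DNGR-1, which senses the actin of dead cells on a subset of dendritic cells. These neighbours share 1 summit at 129402606 with a score of 20.4, which only 3.4% of all summits exceeded. It lies inside Clec1b, 5.31 kb downstream of its start, and 6.26 kb upstream of the start of Clec9a. It also lies inside the annotated span of Clec12b, 17.1 kb upstream of the start of that gene in the RefSeq promoter table. A list of summits cannot assign it to any of these genes.

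The other 3 activating genes had no summit within 10 kb. Clec4d and Clec4e encode MCL and Mincle, which bind mycobacterial cord factor. They stand beside Clec4n, and the nearest summit to both was the one of score 2.76 at Clec4n, 32.3 kb from Clec4d and 52.0 kb from Clec4e. The highest within 50 kb of Clec4d was the other Clec4n summit, 7.28 at 34.4 kb. Clec4b1, the gene of the dendritic cell activating receptor DCAR, had summits of 4.39 and 5.69 at 23.7 and 24.1 kb beyond its upper end. No listed site was close to the receptors for cord factor, although a site was called beside both Dectin genes.

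All 4 genes of inhibitory receptors had a summit within 10 kb, against 22.4% of all genes, but the count for Clec12b rests on a long gene model. Their scores ranged from 3.72 to 21.8. Clec4a2 (123122690 to 123143999, plus strand) encodes DCIR, whose tail carries an inhibitory tyrosine motif. Its summit at 123123286 lies inside the gene, 596 bases downstream of the start. With a score of 21.8 it is the highest-scoring site within 10 kb of any Clec gene, and 2.4% of all summits exceeded it. Clec4a4 (122990367 to 123024421), the gene of DCIR2, had its summit at 122990068, 299 bases beyond its lower end, with a score of 7.48. Clec12a (129349783 to 129365303) encodes MICL or CLL-1, a surface antigen of leukaemic myeloid cells, and its summit of score 3.72 at 129363427 lay inside the gene, 1.88 kb from the end of transcription. Clec12b (129375513 to 129427634) was counted through a summit of score 21.5 at 129436299, 8.67 kb beyond its upper end. Its annotated span reaches across Clec1b and Clec9a, and that summit lies 50.8 kb from its start in the RefSeq promoter table. The same summit lies inside Clec1a.

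The 3 Clec4a and Clec4b genes without a firm place among activating or inhibitory receptors all had a summit within 10 kb, against 22.4% of all genes. Clec4a1 (122921848 to 122934619, plus strand) had 3, more than any other gene of the array. They lie at 122921654, 194 bases upstream of its start (score 13.2), at 122928859 within the gene (15.7) and at 122939799, 5.18 kb past its upper end (8.85). Clec4a3 (122952515 to 122969878, plus strand) had 1 summit at 122952591, with a score of 9.96. It falls between the 2 starts that RefSeq gives for the gene, 76 bases downstream of the first and 53 upstream of the second. Clec4b2 (123172868 to 123204671, plus strand) had 2 summits on either side of its start, at 123171225, 1798 bases upstream, with a score of 14.8 and at 123174470, 1447 bases downstream, with 8.64.

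The Clec4 array as a whole spans 368 kb of chromosome 6 (122921848 to 123289871) and holds 9 protein-coding genes, all of them Clec genes. It contained 11 summits, or 2.99 per 100 kb. Windows of the same length laid from the lower end of every protein-coding gene held a median of 2, and 1.5% of these overlapping windows held at least 11. The family was selected on these same summits and its genes set the edges, so this share is a description and no test. Of the 9 genes, 5 (55.6%) had a summit within 1 kb of an end, against 6.41% of all genes. The sites run from Clec4a1 to Clec4n, and Clec4b1 between them and Clec4d and Clec4e at the upper edge had none within 10 kb.

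**Figure D3:**
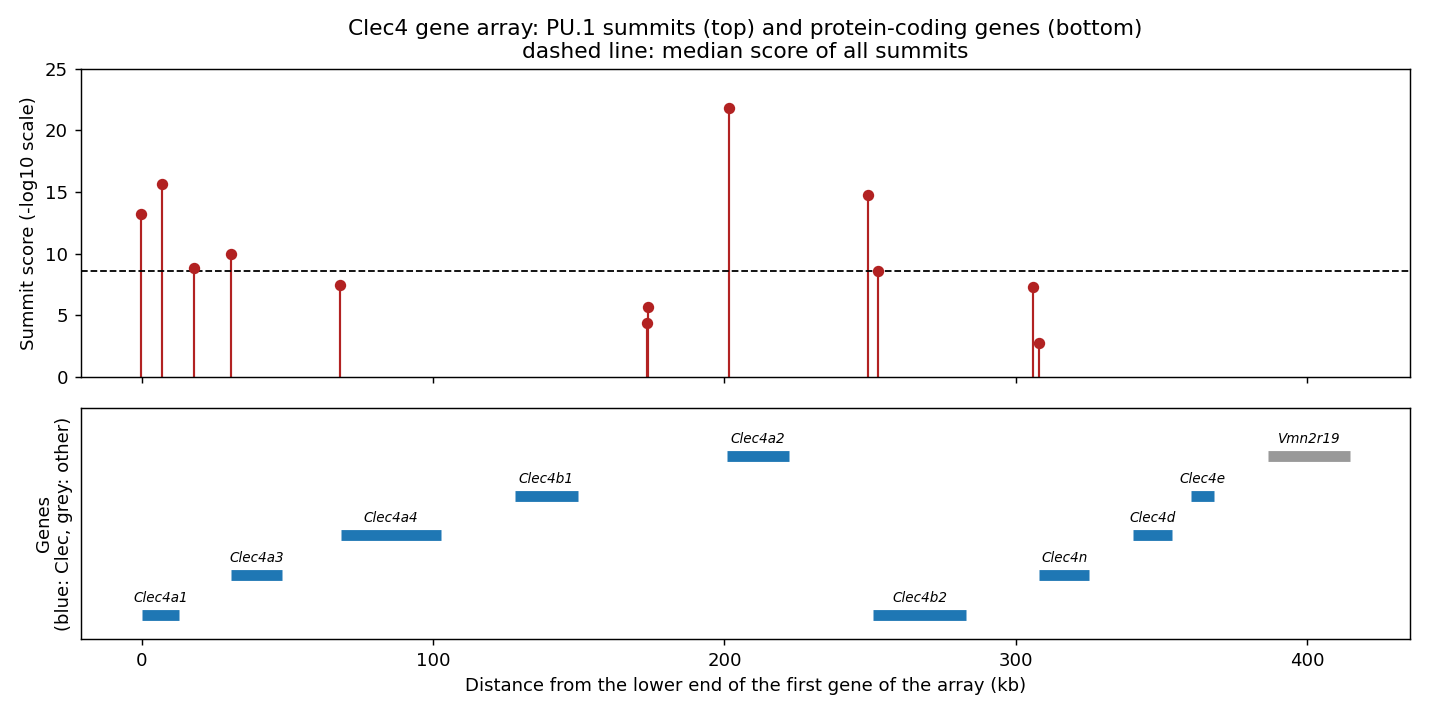
PU.1 summits (top, score on a −log10 scale) over the protein-coding genes of the Clec4 array (bottom, blue for Clec genes and grey for others), by distance from the lower end of Clec4a1 (kb), with a dashed line at the median of all summits. The highest summit, 21.8, stands at Clec4a2, and no summit lies over Clec4a4, Clec4b1, Clec4n, Clec4d or Clec4e.

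The sequences under the promoter summits are shown because they let the site be set against the letters PU.1 is known to prefer. RefSeq promoter windows of GRCm38.p6 (250 bases before to 50 after a transcription start) matched 26 of the 33 genes, with 29 windows. Of these windows, 5 (17.2%) held a summit, against 2.66% of 21020 windows of all protein-coding genes. They belong to 4 genes. Clec4a4 and Clec4n, with summits 299 and 79 bases from an end, had no window and could not be assessed. The 101 bases centred on each summit (base 51), 5′ to 3′ on the strand of the gene, are the following, with the PU.1 core GAGGAA or its reverse complement in capitals.
Clec4a1, chr6:122921604-122921704, plus strand: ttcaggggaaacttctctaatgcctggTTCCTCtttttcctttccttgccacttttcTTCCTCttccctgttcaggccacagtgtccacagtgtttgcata
Clec4a3, chr6:122952541-122952641, plus strand: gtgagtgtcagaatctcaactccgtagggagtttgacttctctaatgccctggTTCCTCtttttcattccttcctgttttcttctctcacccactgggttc
Clec7a, chr6:129472815-129472915, minus strand: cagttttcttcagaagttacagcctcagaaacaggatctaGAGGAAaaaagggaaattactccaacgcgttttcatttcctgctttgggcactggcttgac
Clec16a, chr16:10545186-10545286, plus strand: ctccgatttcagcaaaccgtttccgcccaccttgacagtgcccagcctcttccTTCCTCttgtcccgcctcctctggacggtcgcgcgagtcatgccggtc

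All 4 stretches hold GAGGAA, on the gene strand at Clec7a and on the opposite strand at the other 3. The centre of the nearest match lay 5.5 bases from the summit at Clec4a3 and Clec16a, 7.5 at Clec7a and 9.5 at Clec4a1. Among the 560 promoter windows of all genes that held a summit, 47.9% had GAGGAA anywhere on either strand and 16.6% had it centred within 10 bases of a summit. Of the 20460 windows with no summit, 26.6% had it. Clec4a1 has a second match 20.5 bases upstream of its summit. The matches describe letters and do not show that PU.1 binds at them.

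**Figure D4:**
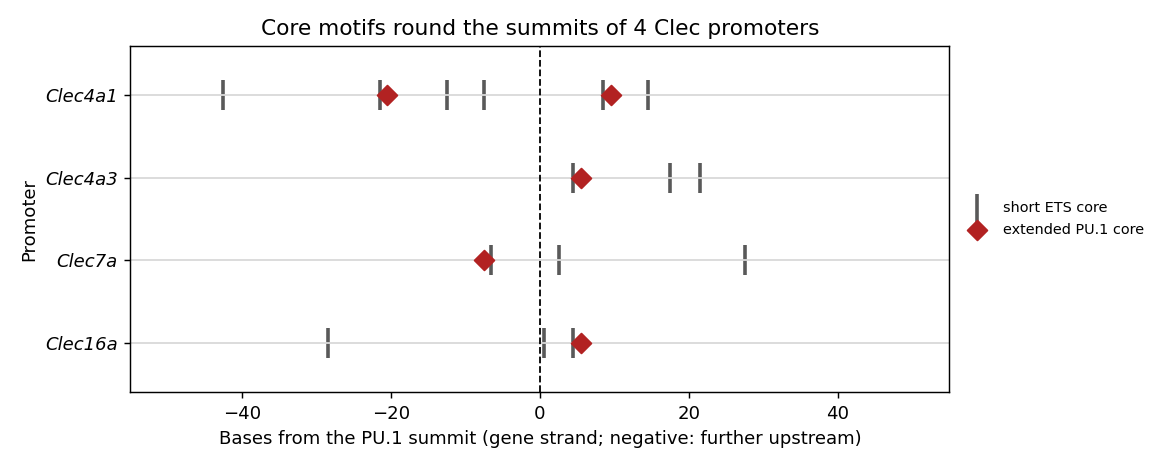
Positions of the core motifs within 50 bases of the PU.1 summit (dashed line at 0) in the promoters of Clec4a1, Clec4a3, Clec7a and Clec16a (y axis), in bases along the gene strand (x axis). Grey ticks mark the 4-letter ETS core on either strand and red diamonds the 6-letter PU.1 core, which contains it, and a diamond lies within 10 bases of the summit in each promoter.

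The Clec4a1 and Clec4a3 promoters share part of the sequence under their summits. Their best local alignment covers 116 columns, of which 71.6% are identical, and includes both cores printed for Clec4a1 and the core of Clec4a3. The Clec4a1 core that pairs with the one of Clec4a3 is the first, 20.5 bases from the Clec4a1 summit. The core nearer that summit, at 9.5 bases, has no counterpart core in Clec4a3. The alignment had the second-highest score of 27 alignments between promoter windows of different genes of the array, which leave out Clec4a4 and Clec4n. The highest was between Clec4b1 and Clec4b2, with 74.5% identity over 192 columns. Neither of those windows held a summit. Clec4b2 had summits 1798 and 1447 bases from its start, outside the sequence compared, and Clec4b1 had none within 10 kb. How reads that map to several copies were handled is not stated by the labels.

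A core was also common in Clec promoters with no summit. Of the 24 such windows, 11 (45.8%) held GAGGAA, among them those of Clec4d with 3 matches and of Clec4b1, Clec4e, Clec5a and Clec12a with 2 each. Over all 29 Clec windows the share was 55.2%, against 27.2% of all windows. The longer GAGGAAGT was in 0 Clec windows and in 3.15% of all. The shorter GGAA, contained in both, was in all 29 Clec windows and in 95.7% of all. Other searched letters were in 20.7% of Clec windows against 10.3% of all for TTGCNNAA (C/EBP), 20.7% against 7.04% for TGANTCA (AP-1), 10.3% against 3.36% for a motif of interferon regulatory factors and 24.1% against 14.7% for TGTGGT (Runx). Both strands were searched, and 29 windows are few for such shares. They come from 26 genes. Clec2i, Clec4a3 and Clec7a have 2 overlapping windows each, so a match in their shared bases counts more than once.

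Clec2 genes encode small lectins, several of which are ligands of the NKR-P1 receptors of natural killer cells. Of these 8 genes, 4 (50%) had a summit within 10 kb, against 22.4% of all genes. Clec2e (129091816 to 129100903, minus strand) had 3, at 129103357, 2.45 kb upstream of its start (score 10.5), at 129098005 within the gene (10.4) and at 129088726, 3.09 kb past the end of transcription (4.74). The promoter windows of Clec2e and Clec2h were the most alike of 403 pairs of Clec windows. Their identity over the whole window was 79.6%, against a median of 49.5%. Neither window held a summit, so the summits of Clec2e lie outside the sequence compared. The nearest summit to Clec2h lay 117 kb away. Clec2m and Clec2g had 1 summit each upstream of their starts, at 129334038 (2.26 kb, score 8.0) and 128930964 (3.42 kb, 5.6).

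Clec2l, on chromosome 6 outside the arrays, had a summit inside the gene at 38669840 with a score of 1.44, and 99.6% of all summits scored higher. A score of 20.3 lay 21.6 kb below it, 2.62 kb from Klrg2. Clec2d (scores 9.57 and 7.16 at 26.6 and 46.4 kb) and Clec2i (5.6 and 4.62 at 32.8 and 43.7 kb) had more distant summits. Clec2f and Clec2h had none within 50 kb.

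The array from Clec2h to Clec7a spans 810 kb (128662385 to 129472785) and holds 13 Clec genes and 6 other protein-coding genes. It contained 13 summits, or 1.604 per 100 kb. Windows of that length laid from each gene held a median of 4, and 8.59% held at least 13. As for the Clec4 array, this share describes and tests nothing. The 2 summits above 20 both lie in the stretch from Clec1b to Clec1a, toward the upper end of the array, and no summit within 10 kb of a Clec2 gene exceeded 10.5.

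**Figure D5:**
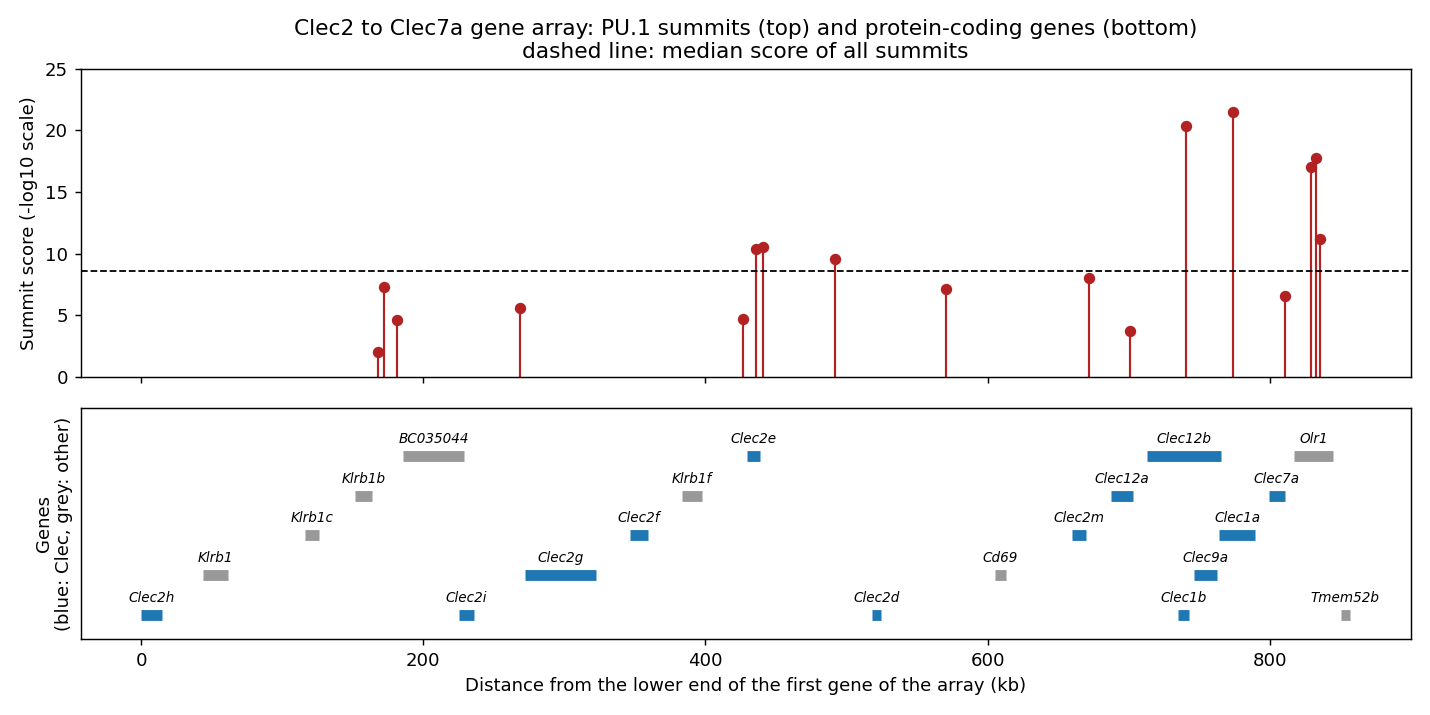
PU.1 summits (top, score on a −log10 scale) over the protein-coding genes of the array from Clec2h to Clec7a and the next 40 kb (bottom, blue for Clec genes and grey for others), by distance from the lower end of Clec2h (kb), with a dashed line at the median of all summits. Scores of 20.4 and 21.5 stand at Clec1b and Clec1a, and 3 summits of 11.2 to 17.7 over Olr1.

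The remaining Clec genes were grouped as endocytic and liver lectins or as endothelial, secreted and other proteins. Of the 3 endocytic and liver lectin genes, 1 (33.3%) had a summit within 10 kb, against 22.4% of all genes. Clec4g (chromosome 8, 3707066 to 3720695), expressed by liver sinusoidal endothelium, had a summit of score 13.9 at 3711901, inside the gene, 8.75 kb downstream of its start. The nearest end of any gene to it was that of the long noncoding RNA gene Gm16553, at 2.42 kb. Clec10a, the macrophage galactose lectin gene, and Clec4f, a Kupffer cell lectin gene, had none within 50 kb, and their nearest summits lay 81.9 and 138 kb away.

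Of the 7 endothelial, secreted and other genes, 2 (28.6%) had a summit within 10 kb, a share near the 22.4% of all genes. Clec16a (chromosome 16, 10545309 to 10744878), which encodes an intracellular protein of endosomes and autophagy rather than a receptor, had a summit at 10545236, 103 bases upstream of its start (11.7), and one at 10546589, 1250 bases downstream (10.1). Another lay deep in the gene, 20.9 kb from its upper end, also with a score of 11.7. Clec1a was counted through the summit of 21.5 described above, inside the gene and 9.62 kb from its lower end. Clec3b, the tetranectin gene, had a summit of 6.98 at 18.6 kb and Clec11a, the gene of a secreted growth factor, one of 8.0 at 34.2 kb. Clec3a, Clec14a and Clec18a, a cartilage, an endothelial and a secreted lectin gene, had none within 50 kb.

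By the starts in the promoter table, 5 of the 26 matched genes (19.2%) had a summit within 1 kb of a start, against 6.03% of 17274 protein-coding genes in that table. These were Clec4a1, Clec4a2, Clec4a3, Clec7a and Clec16a. Within 10 kb of a start it was 14 of 26 (53.8%), against 17.6%. Of the 23 pairs of a summit and a matched Clec gene within 10 kb of an end, 16 (69.6%) lay nearer the start side than the other end, and over all matched genes this share was 62.1%. Here the start side is an end of the annotated gene, not a start in the promoter table. The 16 include the summit of Clec12b that lies 50.8 kb from its start in that table.

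Of 26 genes that act downstream of these receptors, 14 (53.8%) had a summit within 10 kb, against the 22.4% of all genes. Fcer1g, the shared adaptor chain, had the highest, 26.0 at 0.374 kb beyond its upper end. The guanine exchange factor genes Vav1 and Vav3 followed with 22.6 and 15.4, and between them stood Lyn, a Src-family kinase gene, with 20.3. The DAP12 gene Tyrobp had 3 summits, the highest of which (10.3) lay 23 bases beyond its lower end. Its neighbour Hcst, the DAP10 gene, shares all 3. Syk also had 3, with a highest score of 11.1. Bcl10 and Card9, 2 parts of the signalling complex below Syk, had none within 50 kb. Malt1, another part of it, had 1 within 10 kb, of score 6.7 at 0.316 kb beyond its lower end.

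A chosen list of 57 C-type lectin genes under other names was also counted. It is not complete, and Klrb1, for example, is not on it. Of the 57, 10 (17.5%) had a summit within 10 kb and none had one within 1 kb, against 22.4% and 6.41% of all genes. The highest were at Klrg2 (20.3), Klri1 (18.1), Klri2 (16.4) and Olr1 (11.2), and the first 3 are natural killer type receptor genes. Acan and Bcan, cartilage and brain proteoglycan genes, had none within 50 kb. The difference between this list and the Clec genes was not tested.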

How the data were processed

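The tools named per the submitters' processing notes are CASAVA 1.8.2 and MACS2, with build mm10. Neither labels nor files state the aligner, the settings of the peak caller or how libraries were pooled. The values deposited by the authors are 1 summit position and 1 −log10 score per site, with no value per library. Positions are 1-based. Genes and promoter windows came from RefSeq tables of GRCm38.p6, whose coordinates are those of mm10.

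A summit was counted for each protein-coding gene with an end within 10 kb (50 kb as the wider window) using Python 3.11.15 and pandas 2.3.3, and distances were checked on simulated sites. Promoter windows were aligned with Biopython 1.88 (match 1, mismatch −1, gap −2, extension −0.5). The genes and lists were chosen with earlier results of these data known, so no test was made. Start distances, 101-base stretches, equal-length windows and alignments were added after the data were seen. All Clec genes are accounted for. Of the 2 other lists, the 4 genes with the highest summit within 10 kb and the first 2 in alphabetical order with none within 50 kb are named. Syk, Tyrobp, Hcst and Malt1 were added after their values were seen. The planned search for tyrosine motifs in proteins was not run, and sequence away from promoters was not used here.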

Additional observations from a re-analysis of the deposited data

How the results depend on the processing

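Results were recomputed under 7 alternatives for the Clec genes and 2 for each other list, and a value within 1.5 times the reported one was taken as unchanged. This held for 24 of 32 values, and some of the 24 could not change. With scores of at least 10, 11 Clec genes and 13 summits were left of 19 and 25. With a 1 kb window, 7 genes and 7 summits remained. With 50 kb, the summits numbered 43. The downstream signalling genes with a summit were 22 (84.6%) at 50 kb instead of 14, against 49.5% of all genes. The other C-type lectin genes were 28 (49.1%) at 50 kb instead of 10, against the same 49.5%. At a score of at least 10 they were 4 (7.02%), against 9.08% of all genes. These shifts follow from counting fewer or more sites. With each summit given to its nearest gene end, 17 Clec genes remained, without Clec9a and Clec1a. The share of all genes under that rule was not counted, so this number has no background to be read against. The highest score, 21.8, was the same throughout, because its site meets every window and score limit used. Merging summits within 500 bases left all 25. No paired analysis was possible because the list holds no value per replicate, so leaving replicates out could not be tried either. Unknown read depth limits what a missing site can show.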

Other observations

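The array from Clec2h to Clec7a also held summits nearer to genes that are not Clec genes. Klrb1b, an NKR-P1 receptor gene, had summits 3.72 and 8.29 kb beyond its upper end, with scores of 2.06 and 7.29. A summit of score 4.62 lay 4.14 kb below BC035044, and one of 7.16 lay 294 bases from an end of the long noncoding RNA gene 2310001H17Rik. Cd69, an early activation antigen gene, was the nearest protein-coding gene to the latter, at 34.4 kb.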
